A study of Mus musculus with 12 samples.

Results

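The 42 genes described here encode the B cell receptor's signalling subunits and the proteins that carry or restrain its signal, and they were taken as a named list from 43629 genes in the count table. All 42 passed the filter on low counts in both comparisons below. The libraries came from mouse spleen B cells that were enriched with magnetic beads and sorted by flow cytometry, and each group held 4 libraries. Deficient marginal zone (MZ) cells carried the genotype Zfp36l1fl/flERT2cre/+ (replicates 1, 2, 7 and 8), and control MZ cells were ERT2cre/ERT2cre (replicates 3, 4, 5 and 6). Follicular (FO) cells were Zfp36l1fl/fl cre- (replicates 3, 4, 7 and 8). The strain is given as Zfp36l1tm1.1Tnr for all 3 groups, and neither the age of the mice, nor an inducing drug, nor the promoter of ERT2cre is given in the sources used here. The MZ groups therefore differed in cre copy number as well as in the floxed allele, and control MZ and FO cells differed in genotype as well as in cell type. MZ cells were sorted as CD21 high and CD23 negative and FO cells as positive for both, with B220 and CD93 listed as positive in either gate. Nothing in the labels ties the 4 libraries of a group to separate mice. The p-values below therefore describe spread among libraries, part of which may be technical.

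The B cell receptor is a membrane immunoglobulin bound to the signalling chains CD79A and CD79B. When antigen clusters the receptor, Src-family kinases such as LYN phosphorylate these chains, SYK docks on them, and SYK and BTK with the adaptor BLNK activate phospholipase Cγ2, which raises calcium and activates protein kinase C, NFAT and NF-κB. Inhibitory receptors such as CD22 recruit phosphatases that dampen the same cascade, and MZ B cells are known for answering blood-borne antigen quickly. ZFP36L1 binds AU-rich elements in 3′ untranslated regions (UTRs) and promotes decay of the mRNAs that carry them.

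The libraries held 28938453 to 40664963 counts. Levels are given as CPM (counts scaled to a common library size) after TMM scaling over all 12 libraries. This scaling does not remove effects of library preparation, which per the design text differed between MZ and FO cells. Zfp36l1 itself had 22.0, 31.9, 28.1 and 37.5 CPM in the deficient MZ libraries, against 116, 110, 118 and 126 CPM in the control MZ libraries, a log2 difference of -1.98 (SE 0.12; edgeR quasi-likelihood test, adjusted p = 4.18e-07). The FO libraries held 352 to 396 CPM. Summed markers of marginal zone B cells (8 genes, among them Cr2 for the sorted CD21) reached 7934 to 8194 CPM in deficient MZ, 8357 to 8864 in control MZ and 2032 to 2214 in FO libraries. Those of follicular B cells (4 genes, among them Fcer2a for the sorted CD23) reached 1669 to 2166 CPM in deficient MZ, 1418 to 1797 in control MZ and 7931 to 8032 in FO libraries. The labels on the sorted cells thus matched their markers. The 12 T cell markers summed to 41.2 to 48.1 CPM in deficient MZ, 39.9 to 50.8 in control MZ and 40.2 to 51.1 in FO libraries, and Cd3e, Cd4, Cd28 and Thy1 were at 0 in every control MZ library. Nearly all of this sum was Lck, a kinase gene also on the list of other pathway genes, at 39.6 CPM in deficient MZ, 41.5 in control MZ and 40.9 in FO cells. Cd8a (1.96 CPM in deficient MZ, 0.474 in control MZ) and Tcf7 (1.03 CPM in deficient MZ, 0.183 in control MZ) were called higher in deficient cells. Cd247 (log2 -0.08), Lck (-0.08) and Lat (-0.48) were not called, and the other T cell markers were not tested between the MZ groups. The 12 macrophage and monocyte markers summed to 40.5 to 52.4 CPM in deficient MZ, 37.1 to 43.2 in control MZ and 20.1 to 43.5 in FO libraries. Of 11 tested between the MZ groups, only Adgre1 was called, higher in deficient cells (4.50 CPM in deficient MZ, 1.73 in control MZ and 10.3 in FO cells). Of 10 tested between control MZ and FO cells, 8 were called higher in MZ cells and Adgre1 lower. The 4 natural killer cell markers summed to 19.8 to 25.6 CPM in deficient MZ, 17.4 to 23.0 in control MZ and 2.28 to 3.20 in FO libraries. This sum was mostly Prf1 (22.3 CPM in deficient MZ, 20.6 in control MZ and 2.46 in FO cells), and Ncr1 and Gzma were at 0 in both MZ groups. The 6 erythroid markers summed to 7.21 to 24.9 CPM in deficient MZ, 1.19 to 10.8 in control MZ and 1.85 to 7.12 in FO libraries, and the 5 platelet markers to 7.72 to 16.3 CPM in deficient MZ, 11.4 to 19.8 in control MZ and 3.31 to 4.02 in FO libraries. Of 5 erythroid markers tested between the MZ groups, only Hbb-bt was called, higher in deficient cells (2.44 CPM in deficient MZ, 0.887 in control MZ). The part of these small sums in the results was not tested.

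The members spanned a wide range of levels in every group. Their mean CPM after TMM scaling summed to 2.45% of the CPM scale in deficient MZ, 2.32% in control MZ and 2.60% in FO libraries. The TMM factors were lower in FO than in MZ libraries. These values are therefore not shares of the counts and do not rank the groups by such shares. Per kilobase of exon, the receptor chains led in all 3 groups. Cd79a averaged 2622 CPM per kb in deficient MZ, 2435 in control MZ and 2191 in FO cells, and Cd79b averaged 2004 CPM per kb in deficient MZ, 1731 in control MZ and 1455 in FO cells. Ptpn6, which encodes the phosphatase SHP-1, Cd22 and the Src-family kinase gene Blk came next in deficient and control MZ cells. In FO cells Btla, at rank 5, stood above Blk. Btla, which encodes an inhibitory receptor of the immunoglobulin superfamily, ranked 18 in deficient MZ and 16 in control MZ cells. Cd5, an inhibitory receptor known from T cells and B-1 cells, was last in all 3 groups, at 1.04 CPM per kb in deficient MZ, 0.855 in control MZ and 0.206 in FO cells.

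**Figure D1:**
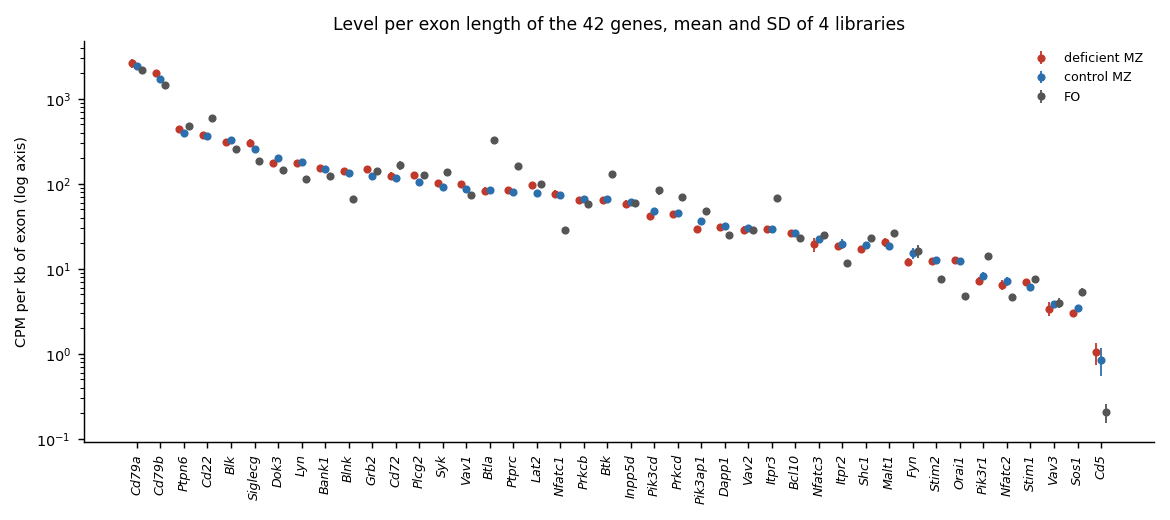
Mean level of each of the 42 genes in CPM per kilobase of exon (log axis) in deficient MZ, control MZ and FO cells. Each point is the mean and each bar the SD of 4 libraries. Cd79a and Cd79b lie at the top in all 3 groups, and Cd5 lies lowest.

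The first question was whether loss of Zfp36l1 in MZ cells went with another level of antigen receptor signalling genes. Most members stayed close to their control level. Of the 42 members, 4 were called (9.52%), with Grb2, Lat2 and Plcg2 higher and Pik3ap1 lower in deficient cells, and each of these differences was smaller than 1.5-fold. Among all 13987 genes tested, 526 were called, which is 3.76%. Genes called higher were 2.30% and genes called lower 1.46% of all tested, beside 3 and 1 of the 42 members. The median log2 difference over the members was -0.02 (range -0.37 to 0.30), and the median size of the difference regardless of sign was 0.12 in the members, against 0.14 over all genes tested. The groups did not overlap for 13 members (31.0%), 7 higher and 6 lower in deficient cells, where 11.9% of all genes tested did not overlap (6.31% higher and 5.58% lower). Of all genes tested, 19.2% had an unadjusted p under 0.05 in this comparison, and 14 of the 42 members did. The members were chosen with earlier results of these data known and were not matched to all genes by level. These shares therefore do not measure an excess.

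The receptor chains and the kinases nearest to them were not called. Cd79a had 4493, 3552, 3476 and 3762 CPM in the deficient MZ libraries, against 3491, 3511, 3797 and 3390 CPM in the control MZ libraries. The groups overlapped, with deficient replicate 1 above all others, and the log2 difference was 0.10 (SE 0.09; edgeR quasi-likelihood test, adjusted p = 0.581). Cd79b had 3232, 2590, 2764 and 2884 CPM in deficient MZ libraries, against 2339, 2282, 2720 and 2566 CPM in control MZ libraries, a log2 difference of 0.20 (SE 0.08; edgeR quasi-likelihood test, adjusted p = 0.205). Here only control replicate 5 lay within the range of the deficient libraries. Lyn, whose kinase both starts the signal and feeds inhibitory receptors, had 761, 698, 725 and 698 CPM in deficient MZ libraries and 702, 671, 772 and 776 CPM in control MZ libraries. The groups overlapped fully, with a log2 difference of -0.03 (95% interval -0.18 to 0.12). Syk, the kinase that docks on the phosphorylated receptor chains, had 860, 960, 1050 and 961 CPM in deficient MZ libraries, against 868, 895, 817 and 853 CPM in control MZ libraries. Deficient replicate 1 lay within the control range and the other 3 above it, with a log2 difference of 0.15 (95% interval -0.01 to 0.31). Btk, the kinase that is mutated in human X-linked agammaglobulinaemia, had 204, 206, 199 and 195 CPM in deficient MZ libraries and 203, 201, 223 and 206 CPM in control MZ libraries. These groups overlapped, and the log2 difference was -0.06 (95% interval -0.19 to 0.07). Fyn, another Src-family kinase, had 54.7, 58.2, 45.6 and 50.4 CPM in deficient MZ libraries, against 66.9, 81.0, 59.7 and 59.9 CPM in control MZ libraries. Its groups did not overlap, but its log2 difference of -0.37 was not called (edgeR quasi-likelihood test, adjusted p = 0.0672).

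**Figure D2:**
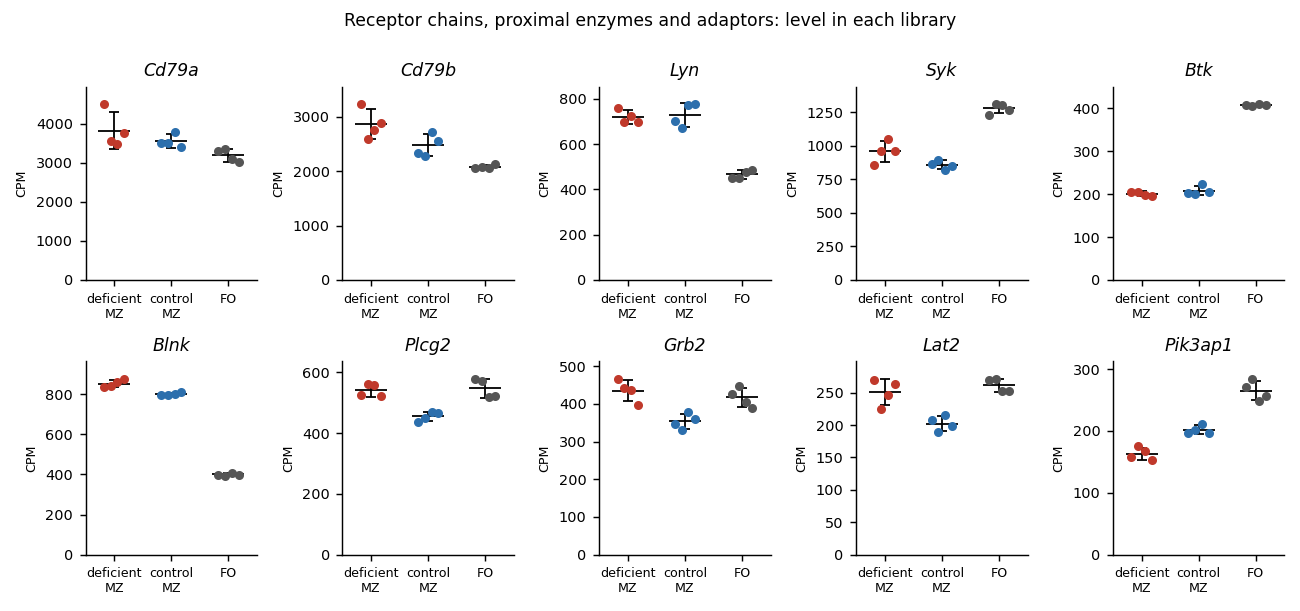
Levels in CPM of 10 members, namely the receptor chains, the core of the cascade and the 4 genes called in deficient MZ cells. Each point is 1 library, and lines give the mean ± SD of 4 libraries, for deficient MZ, control MZ and FO cells. Grb2, Lat2, Plcg2 and Pik3ap1 show deficient MZ libraries that do not overlap with control MZ libraries.

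Both called adaptor genes were higher in deficient cells. Grb2 (ENSMUSG00000059923, chr11:115644045-115708597 in GRCm38), which encodes the adaptor that links phosphotyrosines to the RAS activator SOS, had 466, 441, 436 and 397 CPM in deficient MZ libraries, against 347, 332, 378 and 361 CPM in control MZ libraries. The groups did not overlap, and the log2 difference was 0.29 (SE 0.07; edgeR quasi-likelihood test, adjusted p = 0.031). Lat2 (ENSMUSG00000040751, chr5:134600022-134615025) encodes a membrane scaffold that binds GRB2 after phosphorylation. It had 269, 225, 247 and 264 CPM in deficient MZ libraries, against 208, 189, 215 and 198 CPM in control MZ libraries, again without overlap, and the log2 difference was 0.30 (SE 0.07; edgeR quasi-likelihood test, adjusted p = 0.0305). Exons of Rfc2 on the other strand cover 36.3% of the exon bases of Lat2, and no strand setting of the counting is known, so reads of these genes cannot be told apart. Rfc2 averaged 172 CPM in deficient MZ and 163 CPM in control MZ cells and was not called (log2 0.07; edgeR quasi-likelihood test, adjusted p = 0.698). Blnk, the adaptor that brings BTK and phospholipase Cγ2 together, had 835, 839, 861 and 876 CPM in deficient MZ libraries, against 796, 798, 801 and 810 CPM in control MZ libraries. All deficient libraries were above all control libraries, but the log2 difference was only 0.08 (SE 0.06; edgeR quasi-likelihood test, adjusted p = 0.507). The other 4 adaptors were not called. Dok3, an inhibitory adaptor, averaged 428 ± 27.7 CPM in deficient MZ and 499 ± 20.4 CPM in control MZ cells (SD, n = 4 each) with no overlap, a log2 difference of -0.23 (edgeR quasi-likelihood test, adjusted p = 0.0804).

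Of the 4 genes of the phospholipase and phosphoinositide 3-kinase (PI3K) step, 1 was higher and 1 lower. Plcg2 (ENSMUSG00000034330, chr8:117498291-117635142), which encodes the phospholipase Cγ2 that makes the calcium-releasing messenger, had 524, 560, 559 and 521 CPM in deficient MZ libraries, against 436, 450, 470 and 466 CPM in control MZ libraries. Its groups did not overlap, and the log2 difference was 0.24 (SE 0.06; edgeR quasi-likelihood test, adjusted p = 0.0488). Pik3ap1 (ENSMUSG00000025017, chr19:41272377-41385102) encodes BCAP, an adaptor that brings PI3K to the receptor complex. It had 158, 175, 168 and 153 CPM in deficient MZ libraries, against 196, 201, 212 and 196 CPM in control MZ libraries. All deficient libraries lay below all control libraries, with a log2 difference of -0.31 (SE 0.07; edgeR quasi-likelihood test, adjusted p = 0.0161). Pik3cd, the catalytic PI3K subunit p110δ, had 249, 282, 264 and 250 CPM in deficient MZ libraries, against 303, 307, 284 and 295 CPM in control MZ libraries. It was lower in every deficient library without being called (log2 -0.20; edgeR quasi-likelihood test, adjusted p = 0.123). Pik3r1, the regulatory subunit p85α, averaged 73.0 ± 8.44 CPM in deficient MZ and 83.0 ± 9.13 CPM in control MZ cells (SD, n = 4 each).

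The 4 calls lay near the threshold. With 1 library left out, the log2 differences stayed between 0.26 and 0.33 for Grb2, 0.27 and 0.36 for Lat2, 0.22 and 0.26 for Plcg2, and -0.34 and -0.27 for Pik3ap1, while calls were lost. The call of Grb2 was lost when deficient replicate 2 or 7 or control replicate 3, 4 or 6 was left out (edgeR quasi-likelihood test, adjusted p = 0.0599 to 0.117), and that of Lat2 without control replicate 3, 4 or 6 or deficient replicate 8 (0.0648 to 0.112). Plcg2 remained called only when deficient replicate 1 was the library left out, and it was also lost without the filter on low counts. Pik3ap1 lost its call without control replicate 4 or deficient replicate 8 (edgeR quasi-likelihood test, adjusted p = 0.0567 to 0.0684). Of the members, 9 passed an adjusted p of 0.05 in the authors' deposited table, among them these 4 in the same direction. The others in the authors' deposited table were Vav1 (log2 0.18, adjusted p = 0.0139), Ptpn6 (log2 0.16, 0.0474), Fyn (log2 -0.31, 0.0263), Dok3 (log2 -0.21, 0.0175) and Pik3cd (log2 -0.18, 0.0478). The share of all genes that passed in the authors' deposited table is not given here. DESeq2 run here on the raw counts also called 9 members, beside 1033 of the 23222 genes with a count in the MZ libraries. The filter on low counts was not applied to these genes.

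No gene was called among the exchange factors, inhibitory receptors, phosphatases, PKC and NF-κB module, or calcium and NFAT genes, 24 members in all. The log2 differences of the 5 inhibitory surface receptor genes lay between -0.03 for Btla and 0.27 for Cd5. Siglecg, a sialic acid-binding inhibitory receptor, averaged 1452 ± 156 CPM in deficient MZ and 1230 ± 45.8 CPM in control MZ cells (SD, n = 4 each) without overlap (log2 0.23; edgeR quasi-likelihood test, adjusted p = 0.144). It was called when deficient replicate 1 was left out (edgeR quasi-likelihood test, adjusted p = 0.0422). Among exchange factors, Vav1, which activates RAC, was higher in every deficient library (log2 0.18; edgeR quasi-likelihood test, adjusted p = 0.111), and Sos1 was lower in every one (log2 -0.21; edgeR quasi-likelihood test, adjusted p = 0.15). Ptpn6 did not overlap either (log2 0.16). The 8 calcium and NFAT genes ranged between -0.21 for Nfatc3 and 0.18 for Stim1, and the 4 genes of the PKC and NF-κB module between -0.06 for Prkcd and 0.16 for Malt1. The 95% intervals of all 42 members lay within a 2-fold difference in either direction, and those of 36 of the 38 members not called lay within 1.5-fold. The exceptions were Fyn, whose interval reached -0.59, and Cd5, whose interval reached 0.83.

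**Figure D3:**
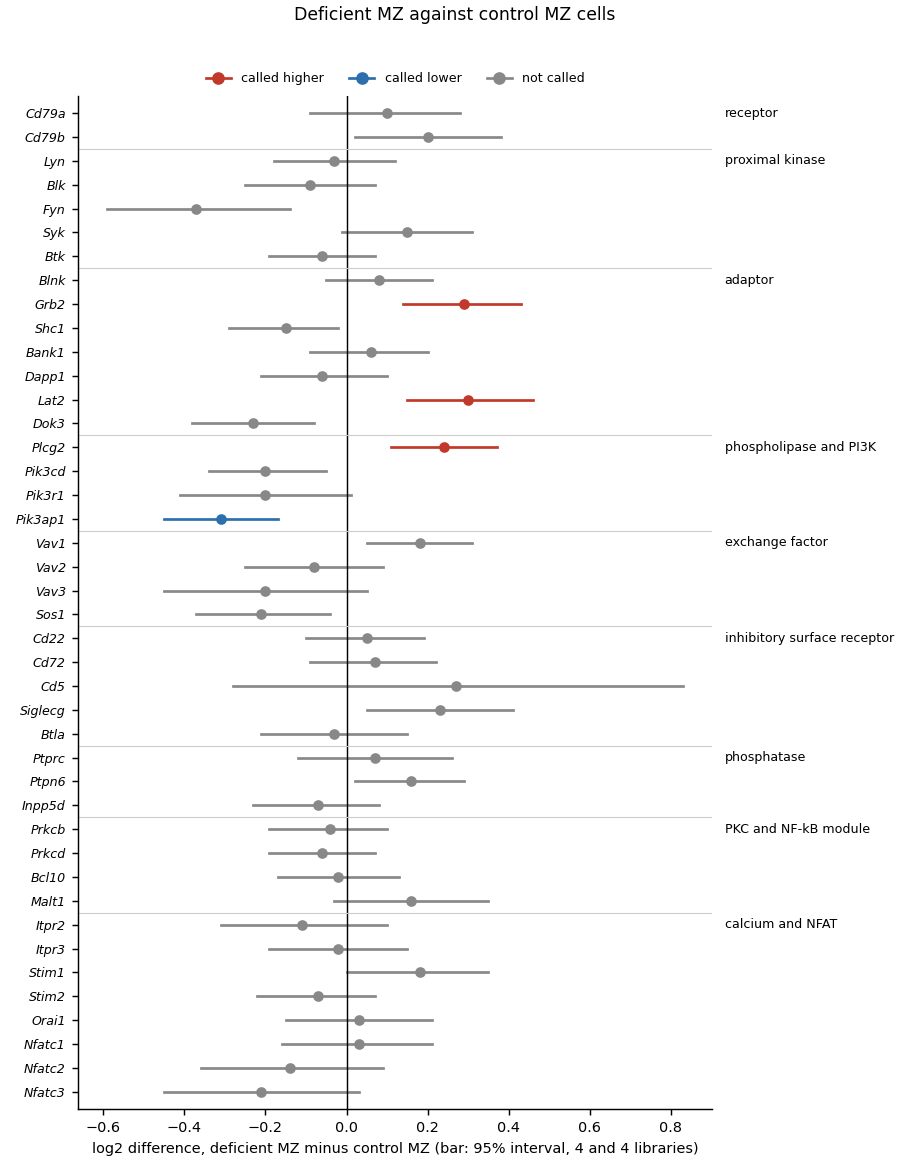
Log2 difference of deficient MZ over control MZ cells with its 95% interval (edgeR quasi-likelihood fit, 4 libraries against 4) for the 42 genes, ordered by role. Red marks genes called higher (Grb2, Lat2 and Plcg2), blue the gene called lower (Pik3ap1) and grey those not called. All intervals lie within 2-fold.

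AU-rich sites were searched because ZFP36L1 binds such elements. The heptamer TATTTAT, read on the mRNA strand only in the longest 3′ UTR annotated for each gene in GENCODE M21, was present in 8 of the 42 members (19.0%), against 29.3% of the 11408 tested genes with an annotated 3′ UTR. The median 3′ UTR was 1414 bases long in the members and 1146 bases over these genes. None of the 4 called members held the heptamer (0 of 4). The sites of 7 members follow with 6 bases on either side, read 5′ to 3′ from GRCm38, with the heptamer in capitals. Malt1 also held 2 matches.
Pik3cd, chr4:149650456-149650474, minus strand: gtaattTATTTATgactcg
Pik3cd, chr4:149649365-149649383, minus strand: ccatgtTATTTATtgaaaa
Pik3r1, chr13:101680620-101680638, minus strand: cagtgcTATTTATaagaaa
Sos1, chr17:80396570-80396588, minus strand: actttgTATTTATtagcga
Sos1, chr17:80395217-80395235, minus strand: aagtggTATTTATcataat
Ptprc, chr1:138063489-138063507, minus strand: actgtgTATTTATcttgaa
Stim1, chr7:102436064-102436082, plus strand: catcatTATTTATtaactg
Stim2, chr5:54118996-54119014, plus strand: tccgccTATTTATttctgc
Stim2, chr5:54120777-54120795, plus strand: gtgtgaTATTTATttgcat
Nfatc2, chr2:168477856-168477874, minus strand: agaacaTATTTATaaatga

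The 8 members with the heptamer had a median log2 difference between deficient and control MZ cells of -0.11 (range -0.21 to 0.18), and 3 of the 8 were above 0. Of these, the PI3K genes Pik3cd and Pik3r1 and the exchange factor gene Sos1 had values of -0.20, -0.20 and -0.21. The calcium sensor gene Stim1, with 1 site, was at 0.18 and its relative Stim2, with 2 sites, at -0.07. The 34 members without the heptamer had a median of -0.02 (range -0.37 to 0.30), with 16 above 0. Members with and without the heptamer thus overlapped over the whole range of the 8.

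Among 82 other genes of the antigen receptor pathways, such as coreceptors, calcineurin and further adaptors, 78 were tested and 8 were called (10.3%; 7 higher and 1 lower in deficient cells), beside the 3.76% of all genes. Cd81, which encodes a tetraspanin of the B cell surface, showed the largest of these differences, with a mean of 952 CPM in deficient MZ and 499 CPM in control MZ cells (log2 0.92; edgeR quasi-likelihood test, adjusted p = 0.000245). The adaptor gene Sla, whose product promotes turnover of antigen receptors, was at 237 CPM in deficient MZ and 155 CPM in control MZ cells (log2 0.61). The inhibitory receptor gene Pirb (log2 0.56) and the kinase gene Akt2 (log2 0.56) were higher as well. The calcineurin subunit genes Ppp3r1 (log2 0.36) and Ppp3ca (log2 0.25) and the adaptor gene Themis2 (log2 0.28) were also called higher. Pik3cg, the catalytic PI3K subunit p110γ, was at 65.3 CPM in deficient MZ and 102 CPM in control MZ cells (log2 -0.65; edgeR quasi-likelihood test, adjusted p = 0.00392). The median over the 78 genes was 0.03. These genes were listed with earlier results of these data known, so the share called does not measure an excess over all genes.

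The second question was how MZ and FO cells differ in these genes. Cell type, genotype and library preparation changed together here. Per the design text, a SMARTer kit, 5 ng of RNA and paired reads were used for MZ cells, and a stranded TruSeq kit with single-end reads for FO cells, so these influences cannot be told apart. Over all genes tested, the median log2 difference was 0.42 in genes with exon lengths of 1028 to 1838 bases and -0.47 in the longest of 10 equal bins of exon length, which holds 9 of the 42 members. A length-adjusted difference, the gene's value minus the median of its bin of exon length, is therefore given beside the main ones of the members. In bulk libraries, fewer cells with a given mRNA and less of that mRNA per cell also cannot be told apart.

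Of the 42 members, 38 were called between control MZ and FO cells (90.5%), 18 higher and 20 lower in MZ cells, where 81.3% of all 13843 genes tested were called (42.6% higher and 38.7% lower). The same number, 38 members, did not overlap between the groups, against 76.9% of all genes (39.7% higher and 37.2% lower). The share called was thus near that of all genes, while the differences were smaller. All genes were not matched to the members by level, and their log2 differences ranged from -13.23 to 15.48. The median size regardless of sign was 0.49 on the log2 scale in the members and 0.75 over all genes, and 7 members (16.7%) exceeded 1 on the log2 scale, against 39.8% of all genes. Fyn, Vav2, Vav3 and the lipid phosphatase gene Inpp5d were not called. After length adjustment 34 of the 38 called members kept their sign, and Cd79a, Cd79b, Stim1 and Nfatc3 had the other sign.

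**Figure D4:**
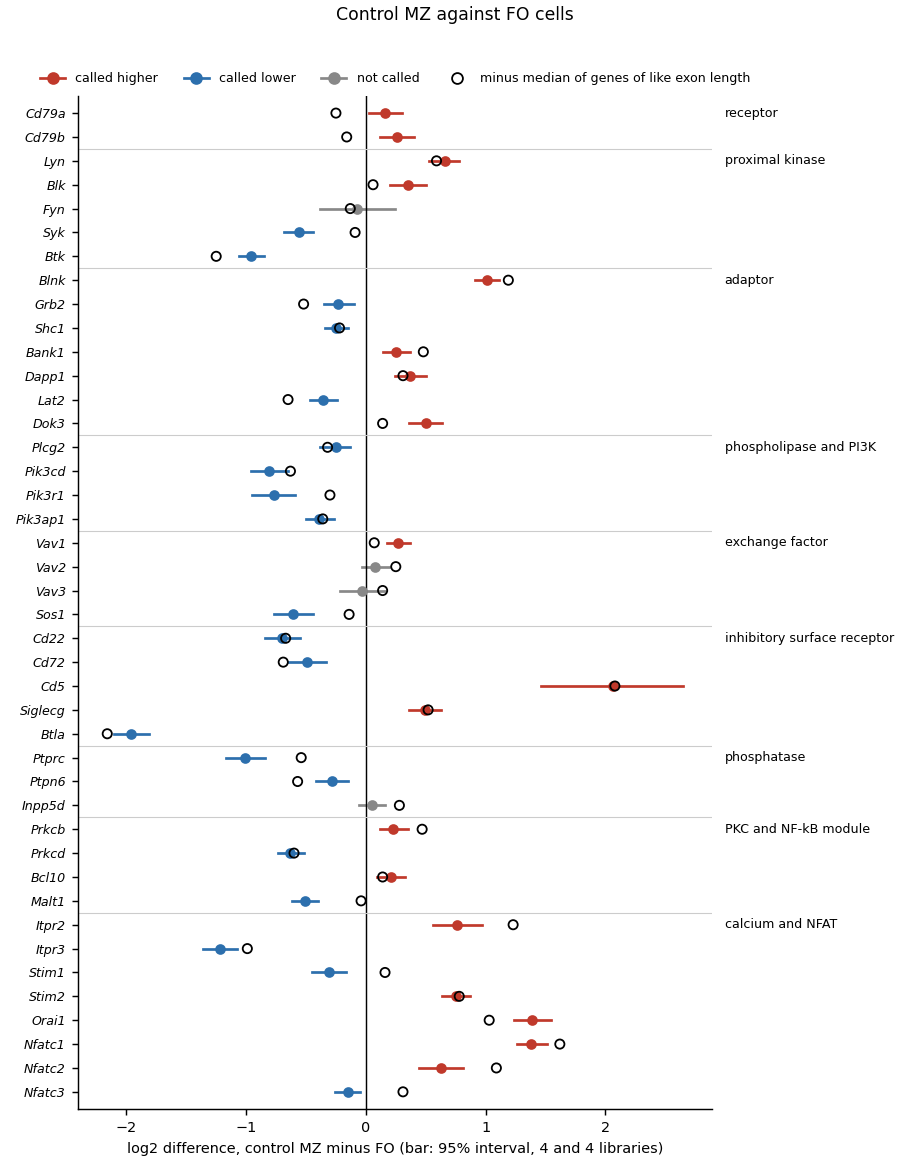
Log2 difference of control MZ over FO cells with its 95% interval (edgeR quasi-likelihood fit, 4 libraries against 4) for the 42 genes, ordered by role, in red where called higher, blue where called lower and grey where not called, with open circles for the length-adjusted difference. Cd5, Orai1 and Nfatc1 lie farthest to the right and Btla farthest to the left, and the open circles of Cd79a, Cd79b, Stim1 and Nfatc3 lie on the other side of 0.

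The receptor chains differed little, and their differences changed sign after length adjustment. Cd79a had 3491, 3511, 3797 and 3390 CPM in control MZ libraries, against 3308, 3356, 3085 and 3018 CPM in FO libraries (log2 0.16; edgeR quasi-likelihood test, adjusted p = 0.0282). This call was lost in 7 of the alternatives, among them leaving out control replicate 4 or 5 or FO replicate 7 or 8, and the length-adjusted difference was -0.25. Cd79b had 2339, 2282, 2720 and 2566 CPM in control MZ libraries, against 2055, 2074, 2063 and 2138 CPM in FO libraries (log2 0.26; edgeR quasi-likelihood test, adjusted p = 0.00177), with a length-adjusted difference of -0.16.

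Kinases moved in both directions. Lyn had 702, 671, 772 and 776 CPM in control MZ libraries, against 452, 451, 476 and 487 CPM in FO libraries (log2 0.66, SE 0.06; edgeR quasi-likelihood test, adjusted p = 2.04e-07), and its length-adjusted difference was 0.59. Blk was also higher in MZ cells (log2 0.35), with a length-adjusted difference of 0.06. Btk had 203, 201, 223 and 206 CPM in control MZ libraries, against 408, 405, 409 and 407 CPM in FO libraries, and so was lower in MZ cells (log2 -0.96, SE 0.05; edgeR quasi-likelihood test, adjusted p = 5.03e-10; length-adjusted -1.25). Syk had 868, 895, 817 and 853 CPM in control MZ libraries, against 1233, 1309, 1306 and 1264 CPM in FO libraries (log2 -0.56, SE 0.05; edgeR quasi-likelihood test, adjusted p = 5.54e-07). Its length-adjusted difference was only -0.09. None of these kinase genes had overlapping groups.

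Of the 7 adaptors, 4 were higher and 3 lower in MZ cells. Blnk, the partner of BTK in activating phospholipase Cγ2, had 796, 798, 801 and 810 CPM in control MZ libraries, against 399, 393, 409 and 399 CPM in FO libraries (log2 1.01, SE 0.05; edgeR quasi-likelihood test, adjusted p = 2.66e-10; length-adjusted 1.19). The direction of Blnk was thus the opposite of that of Btk. Dok3 (log2 0.50, length-adjusted 0.14), Dapp1 (0.37, length-adjusted 0.31), which encodes an adaptor that binds PI3K lipid products, and Bank1 (0.25, length-adjusted 0.48), a scaffold for LYN, were the others called higher. Lat2 (log2 -0.36, length-adjusted -0.65), Shc1 (-0.25, length-adjusted -0.22) and Grb2 (-0.23, length-adjusted -0.52) were lower in MZ cells. Lat2 shares exon bases with Rfc2, which was higher in MZ cells (log2 0.62; edgeR quasi-likelihood test, adjusted p = 6.65e-08).

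All 4 phospholipase and PI3K genes among the members were lower in MZ cells. On the list of other pathway genes, such genes were called in both directions, with Pik3ca and Pik3cg lower and Pik3r2, Pik3r3, Pik3cb and Plcg1 higher. Pik3cd had 303, 307, 284 and 295 CPM in control MZ libraries, against 529, 601, 487 and 479 CPM in FO libraries (log2 -0.81, SE 0.07; edgeR quasi-likelihood test, adjusted p = 2.48e-07; length-adjusted -0.63). Pik3r1 had 91.2, 90.4, 73.3 and 77.2 CPM in control MZ libraries, against 135, 132, 153 and 151 CPM in FO libraries (log2 -0.77, SE 0.08; edgeR quasi-likelihood test, adjusted p = 1.7e-06; length-adjusted -0.30). These groups stood well apart. Pik3ap1 had 196, 201, 212 and 196 CPM in control MZ libraries, against 271, 284, 249 and 257 CPM in FO libraries (log2 -0.39). Plcg2 had 436, 450, 470 and 466 CPM in control MZ libraries, against 578, 571, 518 and 521 CPM in FO libraries (log2 -0.25; edgeR quasi-likelihood test, adjusted p = 0.000875). The length-adjusted differences of Pik3ap1 and Plcg2 were -0.36 and -0.32.

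The inhibitory receptors held both the highest and the lowest difference among the members. Btla had 300, 293, 292 and 248 CPM in control MZ libraries, against 1128, 1107, 1072 and 1128 CPM in FO libraries (log2 -1.96, SE 0.07; edgeR quasi-likelihood test, adjusted p = 1.59e-11; length-adjusted -2.16). The deficient MZ libraries, at 247, 308, 299 and 265 CPM, lay with the control MZ libraries. Cd5 was the least abundant member and had 2.77, 3.35, 6.14 and 4.59 CPM in control MZ libraries, against 0.722, 1.36, 0.942 and 1.04 CPM in FO libraries. The groups did not overlap, and the log2 difference was 2.06 (SE 0.28; edgeR quasi-likelihood test, adjusted p = 1.24e-05; length-adjusted 2.08), resting on 112 to 257 counts per control MZ library and 23 to 43 counts per FO library. Because Cd5 is also made by T cells and B-1 cells, the marker sums stand beside it. The T cell genes Cd3d (0.137 CPM in control MZ, 0.238 in FO cells), Cd3e and Cd3g were near 0 in both groups. Of the 12 T cell markers, 5 were tested between control MZ and FO cells. Cd8a (0.474 CPM in control MZ, 0.217 in FO cells) was called higher and Tcf7 (0.183 CPM in control MZ, 0.582 in FO cells) lower. Cd247, Lat and Lck were not called. The 8 markers of B-1 cells, Cd5 among them, summed to 111 to 152 CPM in deficient MZ, 101 to 137 in control MZ and 74.4 to 98.7 in FO libraries. Between control MZ and FO cells, Cd5 and Ahr (79.7 CPM in control MZ, 5.00 in FO cells) were called higher, and Spn (1.66 CPM in control MZ, 27.1 in FO cells) and Bhlhe40 (13.8 CPM in control MZ, 29.5 in FO cells) lower. Zbtb32, Bhlhe40 and Nid1 were called higher in deficient than in control MZ cells. Cd5 (log2 0.27), Spn (-0.11), Itgam (-0.15) and Ahr (-0.47) were not called in that comparison, and Ctla4 was not tested. The part of T cells or B-1 cells in the level of Cd5 was not tested. Siglecg was higher in MZ cells (log2 0.49, length-adjusted 0.52), and Cd22 (-0.70, length-adjusted -0.67) and Cd72 (-0.49, length-adjusted -0.69), both receptors with inhibitory motifs, were lower. Exons of Tesk1 on the other strand cover 41.6% of the exon bases of Cd72, and Tesk1 was lower in MZ cells too (log2 -1.47; edgeR quasi-likelihood test, adjusted p = 3.81e-11). Tesk1 averaged 23.0 CPM in control MZ and 64.3 CPM in FO cells, and Cd72 averaged 404 and 573 CPM. The part of Tesk1 reads in the level of Cd72 was not tested.

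Of the phosphatases, Ptprc and Ptpn6 were lower in MZ cells. Ptprc, which encodes CD45, the phosphatase that keeps Src-family kinases active and whose B220 form was part of both gates, had 1600, 1531, 1392 and 1313 CPM in control MZ libraries, against 3094, 3134, 2785 and 2811 CPM in FO libraries (log2 -1.01, SE 0.08; edgeR quasi-likelihood test, adjusted p = 4.74e-08; length-adjusted -0.54). Ptpn6 had a log2 difference of -0.28 (length-adjusted -0.57). Vav1 was the one exchange factor called higher (log2 0.27) and Sos1 the one called lower (log2 -0.61), with length-adjusted differences of 0.07 and -0.14. In the PKC and NF-κB module, Prkcb (log2 0.23, length-adjusted 0.47) and Bcl10 (0.21, length-adjusted 0.14) were higher, and Prkcd (-0.63, length-adjusted -0.60) and Malt1 (-0.51, length-adjusted -0.04) were lower in MZ cells.

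Calcium and NFAT genes held 3 of the 7 members whose difference exceeded 1 on the log2 scale. Orai1, which encodes the pore of the store-operated calcium channel, had 28.8, 27.6, 28.5 and 28.7 CPM in control MZ libraries, against 10.4, 10.9, 11.6 and 10.7 CPM in FO libraries (log2 1.39, SE 0.07; edgeR quasi-likelihood test, adjusted p = 6.88e-10; length-adjusted 1.03). Nfatc1, a calcium-regulated transcription factor, had 519, 529, 568 and 617 CPM in control MZ libraries, against 216, 214, 212 and 220 CPM in FO libraries (log2 1.38, SE 0.06; edgeR quasi-likelihood test, adjusted p = 1.36e-10; length-adjusted 1.62). Both were at a similar level in all MZ libraries, deficient ones included, which held 27.3 to 33.4 CPM of Orai1 and 486 to 623 CPM of Nfatc1. Itpr3, a receptor channel that releases calcium from the endoplasmic reticulum, went the other way, with 275, 285, 244 and 246 CPM in control MZ libraries, against 645, 609, 613 and 601 CPM in FO libraries (log2 -1.22, SE 0.06; edgeR quasi-likelihood test, adjusted p = 1.09e-09; length-adjusted -0.99). Its relative Itpr2 was higher in MZ cells (log2 0.76), as were the calcium sensor gene Stim2 (0.75) and Nfatc2 (0.63). The length-adjusted differences were 1.23 for Itpr2, 0.78 for Stim2 and 1.09 for Nfatc2. Stim1 (-0.31) and Nfatc3 (-0.15) were lower, with length-adjusted differences of 0.16 and 0.31, and Nfatc3 lost its call with all 12 libraries in 1 fit and with the replicate block. In all, 5 of the 8 genes were called higher and 3 lower, and after length adjustment only Itpr3 was below 0.

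**Figure D5:**
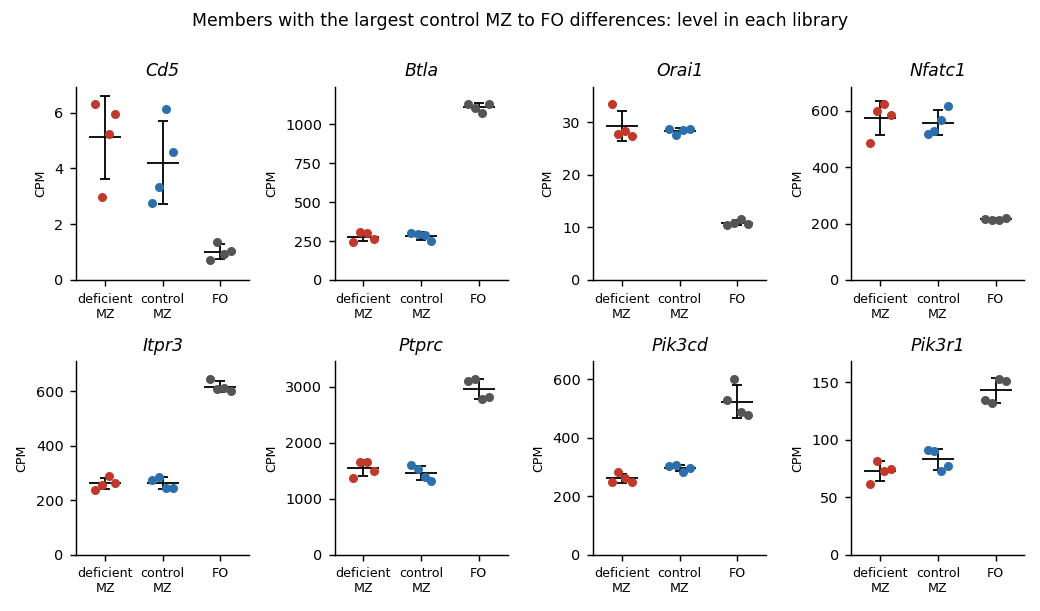
Levels in CPM of 8 of the 10 members with the largest differences between control MZ and FO cells (Btk and Blnk are in the plot of the core genes). Each point is 1 library, and lines give the mean ± SD of 4 libraries, for deficient MZ, control MZ and FO cells. In all 8 panels the FO libraries lie apart from both MZ groups, above them for Btla, Itpr3, Ptprc, Pik3cd and Pik3r1.

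For the 4 genes called in deficient cells the levels of the 3 groups are given side by side. Both comparisons share the control MZ libraries, so the directions are not independent. Relative to FO cells, control MZ cells had 20 of the 42 members and 38.7% of all genes tested called lower. Grb2 averaged 435 ± 28.4 CPM in deficient MZ, 354 ± 19.7 in control MZ and 417 ± 24.8 in FO cells (SD, n = 4 each). Lat2 averaged 251 ± 19.9 CPM in deficient MZ, 202 ± 11.3 in control MZ and 261 ± 10.3 in FO cells. Plcg2 averaged 541 ± 21.7 CPM in deficient MZ, 455 ± 15.5 in control MZ and 547 ± 32.1 in FO cells. For all 3 genes the deficient MZ libraries overlapped with the FO libraries. These CPM are not adjusted for exon length or for library preparation, so this overlap does not show equal levels. The length-adjusted differences of control MZ from FO cells were -0.52 for Grb2, -0.65 for Lat2 and -0.32 for Plcg2. Pik3ap1 averaged 163 ± 10.1 CPM in deficient MZ, 202 ± 7.69 in control MZ and 265 ± 15.1 in FO cells, with no overlap among the 3 groups.

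Of the 82 other pathway genes, 77 were tested between control MZ and FO cells and 64 were called (83.1%), 26 higher and 38 lower in MZ cells, near the 81.3% of all genes tested (42.6% higher and 38.7% lower). The largest positive differences were those of the Fc receptor-like gene Fcrl5, with means of 403 CPM in control MZ and 26.8 CPM in FO cells (log2 3.92), and of the adaptor genes Sla2 (log2 3.26) and Dok2 (log2 3.13) and the phosphatase gene Ptpn22 (log2 2.71). Among the largest negative ones were those of the adaptor gene Pag1, with 46.6 CPM in control MZ and 304 CPM in FO cells (log2 -2.69), Ighd, which encodes the IgD heavy chain (log2 -2.46), and Nfat5 (log2 -2.23). These 7 exceeded in size the largest difference among the members, the 2.06 of Cd5. Ighd is also known as a marker of mature follicular cells.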

How the data were processed

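RNA was sequenced in 12 libraries of sorted splenic B cells, 4 per group, and the labels' genotype and cell type set the groups. The authors deposited raw counts per Ensembl gene, with 1 column per library. Per the submitters' processing notes these came from Trim Galore, TopHat2 2.0.12 and HTSeq on GRCm38, and DESeq2 1.10.1 was used; the counting mode is not stated. The authors' log2 fold changes and adjusted p-values come from the authors' deposited DESeq2 tables. The extraction protocol in the labels names a SMARTer kit for all libraries, and only the design text gives another kit for FO cells.

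Here the raw counts were tested with the edgeR 4.0.16 quasi-likelihood test (R 4.3.3), with robust dispersions, TMM scaling, edgeR's default low-count filter by group and Benjamini-Hochberg adjustment over all tested genes. Fits held only the 8 libraries being compared, since the FO libraries were prepared in another way. A gene was called at an adjusted p below 0.05. Replicates varied with a biological coefficient of variation of 0.123 (MZ groups) and 0.104 (control MZ and FO). Intervals (95%) use the fit's degrees of freedom. Exon lengths, symbols and 3′ UTRs come from GENCODE M21 (42462 of 43629 gene IDs matched). At these depths the lowest count of a member was 23 (Cd5 in an FO library).

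The members and gene lists were chosen with earlier results of these data known. Full values were given, by rule, for Cd79a, Cd79b, Syk, Lyn, Btk, Blnk and Plcg2, the members called in deficient cells and the 10 members with the largest difference between control MZ and FO cells. Of the other pathway genes, those called in deficient cells and the 4 largest differences in each direction between control MZ and FO cells were named. Further PI3K and phospholipase genes on that list were named after their values were seen. A gene that qualified is not reported here. Other members named with a value were chosen after their values were seen. No replicate pair held identical columns (chi-square per gene 5.78 to 48.6). The alternatives were DESeq2 1.42.0, its size factors in edgeR, no filter, all 12 libraries in 1 fit, a replicate block, length adjustment and leaving out each library.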

Additional observations from a re-analysis of the deposited data

Results flagged for a closer look

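Of 126 combinations of a member and a group, 9 held a library that stood far from the other 3 by Dixon's test, where chance flags about 1 in 20. FO replicate 4 was the lowest for Bank1, a scaffold for LYN, at 898 CPM (the others 948 to 951), for Prkcb, a protein kinase C gene, at 425 CPM (440 to 441) and for Malt1 at 451 CPM (478 to 483), and the highest for Cd72 at 676 CPM (527 to 548). Deficient MZ replicate 1 was the lowest for Dapp1 at 116 CPM (131 to 134) and the highest for Prkcb at 544 CPM (474 to 486) and for Orai1 at 33.4 CPM (27.3 to 28.3). Control MZ replicate 6 was the lowest for Btla at 248 CPM (292 to 300), and control MZ replicate 3 the highest for Malt1 at 350 CPM (322 to 326). Over all 42 members, deficient MZ replicate 1 was the lowest library of its group for 19 and the highest for 13. The median exon length was 7602 bases where it was lowest and 2916 bases where it was highest. The part of exon length in these values was not tested.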

How the results depend on the processing

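Between deficient and control MZ cells, DESeq2 called 9 members, 5 higher and 4 lower, and 14 other pathway genes against 8. It called 1033 of 23222 genes, against 526 of 13987 in edgeR. The 23222 are all genes with a count, while the 13987 passed the filter on low counts, so these shares are not on the same basis. Leaving out 1 library gave 0 to 5 members and 5 to 8 other pathway genes. The matching counts over all genes are not given here. With control replicate 4 left out, edgeR called 0 members (10 at an unadjusted p under 0.05); 1 was called without control replicate 3 or 6 or deficient replicate 8, and 2 without deficient replicate 2 or 7. The sign of some members not called turned when 1 library was left out, with log2 ranges of -0.06 to 0.0 for Lyn, -0.09 to 0.03 for Btla, -0.06 to 0.03 for Bcl10, -0.07 to 0.03 for Itpr3, -0.04 to 0.07 for Orai1 and -0.01 to 0.10 for Nfatc1. The same held for Vav3 between control MZ and FO cells (-0.09 to 0.05). Length adjustment turned Cd79a (-0.25), Cd79b (-0.16), Stim1 (0.16) and Nfatc3 (0.31). The cause was not tested. Control MZ and FO libraries share only the numbers 3 and 4, and same-numbered libraries did not deviate together (r = -0.05 and -0.12 over 13843 genes). Their genotypes differ, so a shared number does not mark a shared mouse. The replicate block is therefore not a pairing by mouse, and its comparison rests on the libraries numbered 3 and 4. With the replicate block, 36 members were called against 38 (Cd79a and Nfatc3 lost), 59 other pathway genes against 64 and 9882 genes against 11256, and Vav2 (-0.01) and Inpp5d (-0.01) turned sign. For deficient and control MZ cells no paired analysis was possible because they share no replicate number. Other settings moved the median of all genes by at most 0.03. Cd5 was the least precisely measured member between MZ groups (SE 0.26), with 107 to 257 counts per library and means of 5.12 ± 1.49 CPM in deficient MZ and 4.21 ± 1.49 CPM in control MZ cells (SD, n = 4 each).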
